A study of Rattus norvegicus with 24 samples.

Results

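Vegfa, its receptors Kdr and Flt1, and Hif1a were followed as 4 genes of 31998 in a table of RNA-seq counts from rat plantaris, a calf muscle. The members were fixed by their Ensembl gene IDs, which were paired with these names outside the deposited table: ENSRNOG00000019598 (Vegfa), ENSRNOG00000046829 (Kdr), ENSRNOG00000000940 (Flt1) and ENSRNOG00000008292 (Hif1a). The table itself holds IDs alone, and 0 of its IDs matched the RefSeq gene table used here, so the names could not be checked against the files and no other gene of the pathway is named. All 4 members had enough counts to be tested. The rats were females of 14 months and generation 19, from the LRT and HRT lines, which were bred for low and high gains with endurance training. There were 4 groups of 6 libraries: LRT overload, LRT control, HRT overload and HRT control. In the overloaded groups the gastrocnemius and soleus of 1 leg had been removed, so that the plantaris carried their load, and it was taken 14 days later. The same treatment text stands on the control libraries, and the labels do not say whether control muscle came from other rats or from the unoperated leg. Nothing in them ties the numbered libraries to separate animals, so p-values measure the spread between these libraries.

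VEGF-A is a secreted growth factor of blood vessels, and muscle fibres are a source of it in skeletal muscle. Its main signalling receptor is KDR (VEGF receptor 2), found on endothelial cells. FLT1 (VEGF receptor 1) binds VEGF-A tightly, signals weakly and also exists as a soluble form that holds VEGF-A away from KDR. HIF-1α, the product of Hif1a, is the oxygen-regulated subunit of the transcription factor HIF-1, which activates Vegfa when oxygen is low. HIF-1α is controlled largely by breakdown of the protein, so its mRNA is not a measure of HIF activity.

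The start sites of the 4 genes are shown because HIF-1 binds the short cores ACGTG and GCGTG, and one member encodes its oxygen-regulated subunit. The sequences are RefSeq promoter windows of 300 bases on GRCr8, most of each lying before the start and 50 bases after it, matched by symbol; all 4 members matched, all on the + strand. Capitals mark the letters ACGTG or GCGTG on either strand, so that CACGT and CACGC count as well.
Vegfa (chr9:22452604-22452903): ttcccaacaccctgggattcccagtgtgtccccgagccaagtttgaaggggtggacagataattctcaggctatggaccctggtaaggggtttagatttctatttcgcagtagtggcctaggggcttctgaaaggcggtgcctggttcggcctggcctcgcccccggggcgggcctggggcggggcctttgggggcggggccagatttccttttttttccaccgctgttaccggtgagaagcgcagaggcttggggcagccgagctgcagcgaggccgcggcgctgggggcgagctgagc
Kdr (chr14:32571813-32572112): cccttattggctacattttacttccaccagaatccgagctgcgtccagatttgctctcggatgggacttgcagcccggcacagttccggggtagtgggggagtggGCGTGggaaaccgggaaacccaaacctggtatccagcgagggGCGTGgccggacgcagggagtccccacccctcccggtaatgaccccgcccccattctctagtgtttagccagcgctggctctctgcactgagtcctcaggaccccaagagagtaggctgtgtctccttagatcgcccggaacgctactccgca
Flt1 (chr12:12333180-12333479): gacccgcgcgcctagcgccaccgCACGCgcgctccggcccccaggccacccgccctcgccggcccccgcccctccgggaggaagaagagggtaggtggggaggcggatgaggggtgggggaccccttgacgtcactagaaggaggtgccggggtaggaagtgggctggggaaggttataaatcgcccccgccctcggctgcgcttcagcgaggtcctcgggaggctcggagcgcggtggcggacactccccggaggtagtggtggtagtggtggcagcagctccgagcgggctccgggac
Hif1a (chr6:98359648-98359947): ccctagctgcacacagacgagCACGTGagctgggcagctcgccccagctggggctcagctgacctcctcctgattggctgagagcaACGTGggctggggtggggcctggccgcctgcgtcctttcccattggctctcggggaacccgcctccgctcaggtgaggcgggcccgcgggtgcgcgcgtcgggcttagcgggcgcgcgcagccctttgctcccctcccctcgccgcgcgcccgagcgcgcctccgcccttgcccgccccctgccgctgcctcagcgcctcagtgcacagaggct
The Vegfa window held 0 cores, as did the window of the second Vegfa start in that table. Kdr held 2 copies of GCGTG, starting 145 and 103 bases before the start. Flt1 held 1, on the reverse strand, with its letters beginning 227 bases before the start. Hif1a held 3 copies of ACGTG at 2 places, since the palindrome CACGTG reads as ACGTG on both strands and gives a pair of overlapping matches. Of 33469 promoter windows of this length, 19.3% held ACGTG, 29.7% held GCGTG and 41.6% held either, so a match is common. The GC box GGGCGG, on either strand, stood 3 times each in Vegfa and Flt1, 2 times in Hif1a and 1 time in Kdr. The window of the second Vegfa start held 0 GC boxes, and 33.1% of windows held the GC box. These matches describe letters and not binding. The hypoxia response element known for Vegfa lies further upstream than this window.

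Overload went with lower Vegfa and Flt1 and with higher Hif1a in HRT muscle, and with higher Kdr and Hif1a in LRT muscle. In HRT, Hif1a rose to 2.10 times its control level, Vegfa fell to 0.54 of it and Flt1 to 0.78 (3 of 4 members called: 1 higher and 2 lower). Of all 16661 genes tested, 63.2% were called in that comparison, 31.9% higher and 31.2% lower, so a call by itself does not set the members apart. In LRT, Hif1a rose 1.75-fold and Kdr 1.25-fold (2 of 4 called, both higher), where 57.2% of all genes were called, 28.9% higher and 28.3% lower. The median log2 fold change of the 4 members was −0.25 in HRT and 0.06 in LRT, against −0.02 in each line over all genes tested. Calls are by edgeR's quasi-likelihood test with Benjamini-Hochberg adjustment over all genes tested and a threshold of 0.05. Levels are CPM (counts scaled to a common library size) normalized by the trimmed mean of M values (TMM), fold changes are overload over control or LRT over HRT on the log2 scale, and ± after a fold change is its standard error. In whole muscle, fewer cells of a type and less RNA per cell cannot be told apart.

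Library totals ran from 26997674 to 34254957 estimated counts. The member counts ran from 613 (Kdr in LRT control) to 7727 (Vegfa in HRT control), and at the lowest of them counting error alone is 4.04% of the value. No pair of libraries within a group agreed within sampling noise (60 pairs, lowest chi-square per degree of freedom 13.25). RNA integrity numbers had a median of 8.7 in LRT overload (8.2 to 8.9) against 8.25 in LRT control (8.1 to 8.5), and of 9 in HRT overload (8.6 to 9.4) against 8.25 in HRT control (8 to 8.6). The median gene depends on the scaling: with libraries scaled by their totals alone, the median log2 fold change of all genes was 0.22 in LRT and 0.27 in HRT, and −0.15 for LRT against HRT in overloaded muscle. With that scaling 78.1% of the calls in LRT and 78.0% of those in HRT were higher, against 50.5% in each line with TMM. A change of scaling shifts all genes nearly alike, so values relative to the median gene must nearly agree. Their agreement cannot tell which scaling is right. Markers of endothelium, fibres and other cell types could not be matched to IDs, so the share of vessel cells in each library was not analysed here.

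**Figure D1:**
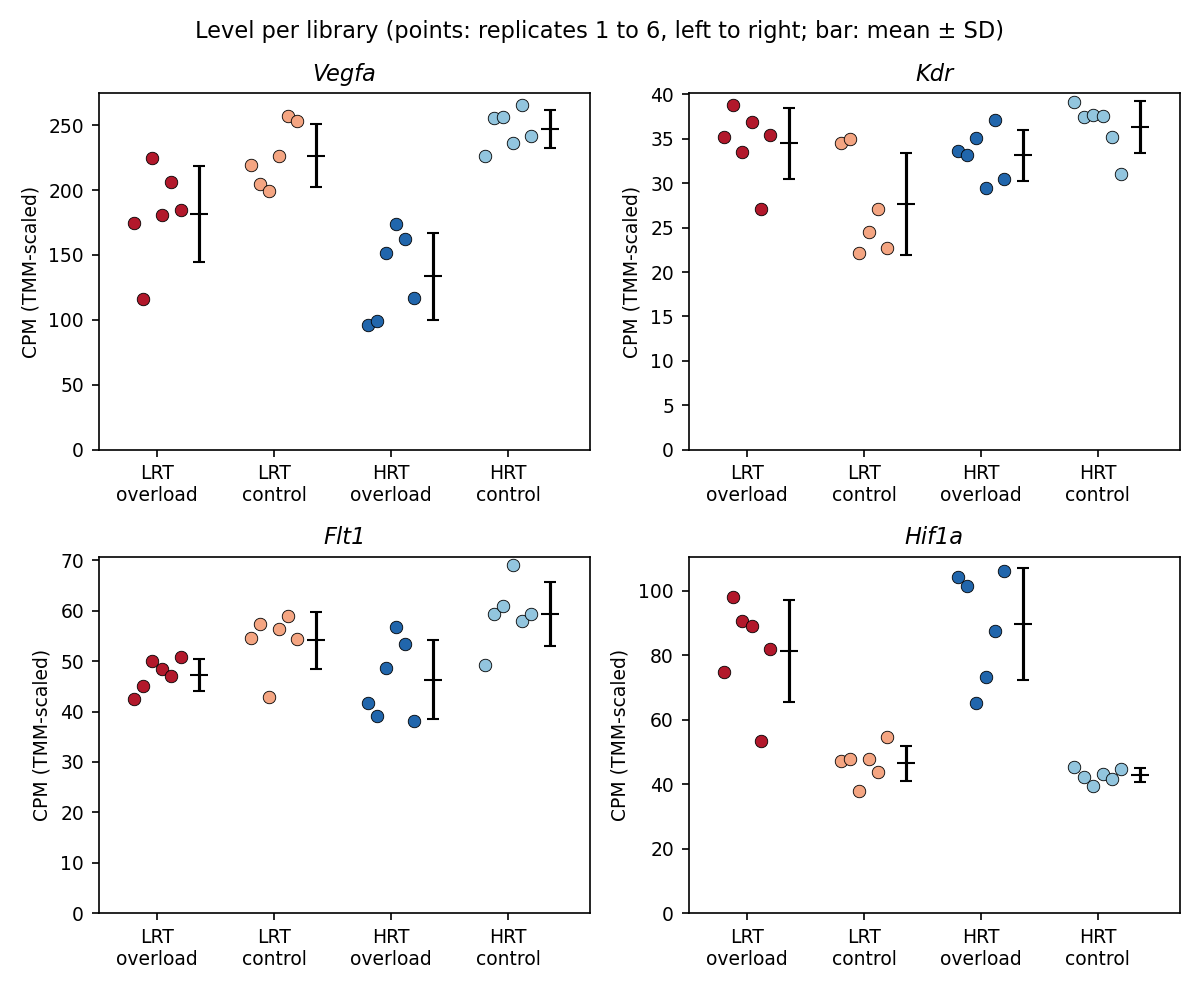
TMM-scaled CPM of Vegfa, Kdr, Flt1 and Hif1a in each of the 24 libraries; points are replicates 1 to 6 from left to right and the bar is the mean ± SD of 6 libraries. In HRT every overloaded library lies below every control library for Vegfa (highest 174 against lowest 226 CPM). For Hif1a every one lies above (lowest 65.3 against highest 45.3 CPM). How many of all genes separate in this way was not counted.

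The ligand Vegfa had 96.1 to 174 CPM in HRT overload (median 134), against 226 to 266 CPM in HRT control (median 249). The groups do not overlap, but how many of all genes tested separate in this way was not counted. The overloaded libraries spread widely: replicates 1, 2 and 6 had 96.1, 99.5 and 117 CPM. Replicates 3, 4 and 5 had 152, 174 and 163 CPM. The mean was 133 ± 33.6 CPM in HRT overload and 247 ± 14.8 CPM in HRT control (SD, n = 6 each). The log2 fold change was −0.89 ± 0.14 (95% interval −1.18 to −0.59; edgeR adjusted p = 9.6e-06), and 4.74% of the genes tested had a lower one.

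In LRT, Vegfa had 116 to 225 CPM in overloaded muscle (median 183), against 200 to 257 CPM in control muscle (median 223). These groups overlap: 4 of 6 overloaded libraries lay below the lowest control, and replicate 2, at 116 CPM, stood well under the others. The mean was 181 ± 37.0 CPM in LRT overload and 227 ± 24.1 CPM in LRT control (SD, n = 6 each), with a log2 fold change of −0.32 ± 0.14 (95% interval −0.61 to −0.03) that missed the threshold (edgeR adjusted p = 0.0556). The interval runs from 0.653 to 0.98 of the control level. The call was made in 6 of 23 alternatives. Among them were those without LRT overload replicate 3 or 5 or LRT control replicate 2 or 3 (−0.39, −0.36, −0.35 and −0.36 in that order, edgeR adjusted p = 0.0252, 0.0417, 0.04995 and 0.046). The fit with RNA integrity as a covariate was another (−0.41, edgeR adjusted p = 0.0332). With library totals alone the value was −0.09 (edgeR adjusted p = 0.509), and relative to the median gene it was −0.31 with library totals and −0.30 with TMM.

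Between lines, Vegfa was at 116 to 225 CPM in LRT overload against 96.1 to 174 CPM in HRT overload. In 5 of 6 LRT overload libraries it lay above the highest HRT overload library. The log2 fold change was 0.44 ± 0.14 (95% interval 0.15 to 0.73), and the edgeR adjusted p of 0.0797 did not pass, with an unadjusted p of 0.00465. The line difference passed in 5 of 23 alternatives. Among them were those without HRT overload replicate 3 or 4 or LRT overload replicate 2 (0.48, 0.53 and 0.54 in that order, with edgeR adjusted p = 0.0435, 0.027 and 0.0157). The DESeq2 Wald test was another (0.44, adjusted p = 0.0407). A fit to the 2 overloaded groups alone gave 0.45 (edgeR adjusted p = 0.252). In control muscle the lines were at 227 ± 24.1 CPM (LRT) and 247 ± 14.8 CPM (HRT), a log2 fold change of −0.12 ± 0.14 (edgeR adjusted p = 0.719). From the lowest level to the highest, the group means were HRT overload, LRT overload, LRT control and HRT control. The neighbours in that order, taken as LRT overload and HRT overload, LRT overload and LRT control, and LRT control and HRT control, did not differ at the threshold.

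Kdr, the main signalling receptor, had 29.5 to 37.2 CPM in HRT overload (median 33.4), against 31.0 to 39.2 CPM in HRT control (median 37.5). The groups overlap, and the log2 fold change of −0.13 ± 0.11 did not pass (95% interval −0.35 to 0.09; edgeR adjusted p = 0.283). Its sign follows the scaling of all genes, with 0.16 for library totals alone (edgeR adjusted p = 0.281), and relative to the median gene it was −0.11 under both scalings.

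In LRT, Kdr had 27.1 to 38.8 CPM in overloaded muscle (median 35.3), against 22.1 to 35.0 CPM in control muscle (median 25.8). The LRT controls fall apart: replicates 1 and 2 had 34.5 and 35.0 CPM, as high as overloaded muscle, and replicates 3 to 6 had 22.1, 24.6, 27.1 and 22.7 CPM. Kdr rose to 34.5 ± 4.01 CPM in LRT overload, against 27.7 ± 5.77 CPM in LRT control (SD, n = 6 each), a log2 fold change of 0.32 ± 0.11 (edgeR adjusted p = 0.0131). The call held with each library left out in turn.

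Between lines, Kdr averaged 27.7 ± 5.77 CPM in LRT control and 36.4 ± 2.89 CPM in HRT control (SD, n = 6 each). In 4 of 6 LRT control libraries Kdr lay below the lowest HRT control library. The log2 fold change of −0.39 ± 0.11 (95% interval −0.61 to −0.17) had an edgeR adjusted p of 0.0526, just outside the threshold, and an unadjusted p of 0.0011. It passed in 8 of 23 alternatives, among them those without HRT control replicate 6 (−0.44, edgeR adjusted p = 0.0471), without LRT control replicate 1 (−0.47, 0.0256) and without LRT control replicate 2 (−0.47, 0.0141), the DESeq2 Wald test (−0.40, adjusted p = 0.0209) and limma-voom (−0.41, adjusted p = 0.0439). After overload the lines had 34.5 ± 4.01 CPM (LRT) and 33.2 ± 2.86 CPM (HRT), with a log2 fold change of 0.06 ± 0.11 (95% interval −0.16 to 0.27; edgeR adjusted p = 0.791) that did not pass.

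Flt1, the receptor that also acts as a decoy, had 38.1 to 56.8 CPM in HRT overload (median 45.2), against 49.3 to 69.1 CPM in HRT control (median 59.4). In 4 of 6 overloaded libraries it lay below every control, and replicates 4 and 5 lay within the control range. Flt1 fell in HRT, with means of 46.3 ± 7.84 CPM in overload and 59.3 ± 6.35 CPM in control (SD, n = 6 each) and a log2 fold change of −0.36 ± 0.10 (edgeR adjusted p = 0.00241). With library totals alone it was −0.08 (edgeR adjusted p = 0.42). Relative to the median gene under each scaling, it was −0.33 with TMM and −0.35 with library totals.

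In LRT, Flt1 had 42.5 to 50.8 CPM after overload (median 47.7), against 43.0 to 58.9 CPM in control (median 55.5). Overloaded libraries sat close together, and the control range was set at its low end by replicate 3 (43.0 CPM), the other 5 being at 54.4 to 58.9 CPM. The log2 fold change of −0.19 ± 0.10 did not pass (95% interval −0.39 to 0.0049; edgeR adjusted p = 0.0891). Without LRT control replicate 3 it was −0.25 and passed (edgeR adjusted p = 0.0248). With library totals alone it was 0.04 (edgeR adjusted p = 0.686), or −0.18 relative to the median gene, against −0.17 with TMM. The lines differed by 0.03 ± 0.10 in overloaded muscle (LRT 47.3 CPM, HRT 46.3 CPM; 95% interval −0.17 to 0.23; edgeR adjusted p = 0.884) and by −0.13 ± 0.10 in control muscle (LRT 54.1 CPM, HRT 59.3 CPM; edgeR adjusted p = 0.525). The first of these changed sign without HRT overload replicate 2 or 6 (−0.01 each).

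Hif1a, which encodes the oxygen-regulated HIF-1 subunit, had 65.3 to 106 CPM in HRT overload (median 94.6), against 39.4 to 45.3 CPM in HRT control (median 42.7). The lowest overloaded library stood above the highest control, with no count of how many of all genes do so. It rose to 89.8 ± 17.3 CPM in HRT overload, against 42.8 ± 2.16 CPM in HRT control (SD, n = 6 each), a log2 fold change of 1.07 ± 0.13 (edgeR adjusted p = 1.35e-07). Its change was above that of 85.6% of genes tested.

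In LRT, Hif1a had 53.6 to 98.0 CPM in overloaded muscle (median 85.4), against 37.9 to 54.6 CPM in control muscle (median 47.4). Only overload replicate 5, at 53.6 CPM, lay within the control range. It rose to 81.3 ± 15.8 CPM in LRT overload, against 46.5 ± 5.48 CPM in LRT control, a log2 fold change of 0.81 ± 0.13 (edgeR adjusted p = 9.85e-06). Both Hif1a calls held in each of the 23 alternatives run for them, at 0.74 to 1.05 in LRT and 1.02 to 1.39 in HRT. The line differences in Hif1a did not pass: −0.14 ± 0.12 in overloaded muscle (LRT 81.3 CPM, HRT 89.8 CPM; 95% interval −0.40 to 0.11; edgeR adjusted p = 0.528) and 0.12 ± 0.13 in control muscle (LRT 46.5 CPM, HRT 42.8 CPM; 95% interval −0.14 to 0.38; edgeR adjusted p = 0.683).

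RNA integrity moved with overload, and its part in these results was looked at only by a covariate fit. In HRT the ranges of the groups meet only at 8.6 (8.6 to 9.4 in overload, 8 to 8.6 in control). The covariate fit therefore cannot fully separate RNA integrity from overload there. With RNA integrity in the model the overload log2 fold changes were −0.41 (LRT) and −1.08 (HRT) for Vegfa, 0.36 and −0.06 for Kdr, −0.23 and −0.43 for Flt1, and 0.93 and 1.29 for Hif1a, LRT before HRT. The calls for Hif1a in both lines, for Vegfa and Flt1 in HRT and for Kdr in LRT held in that fit.

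**Figure D2:**
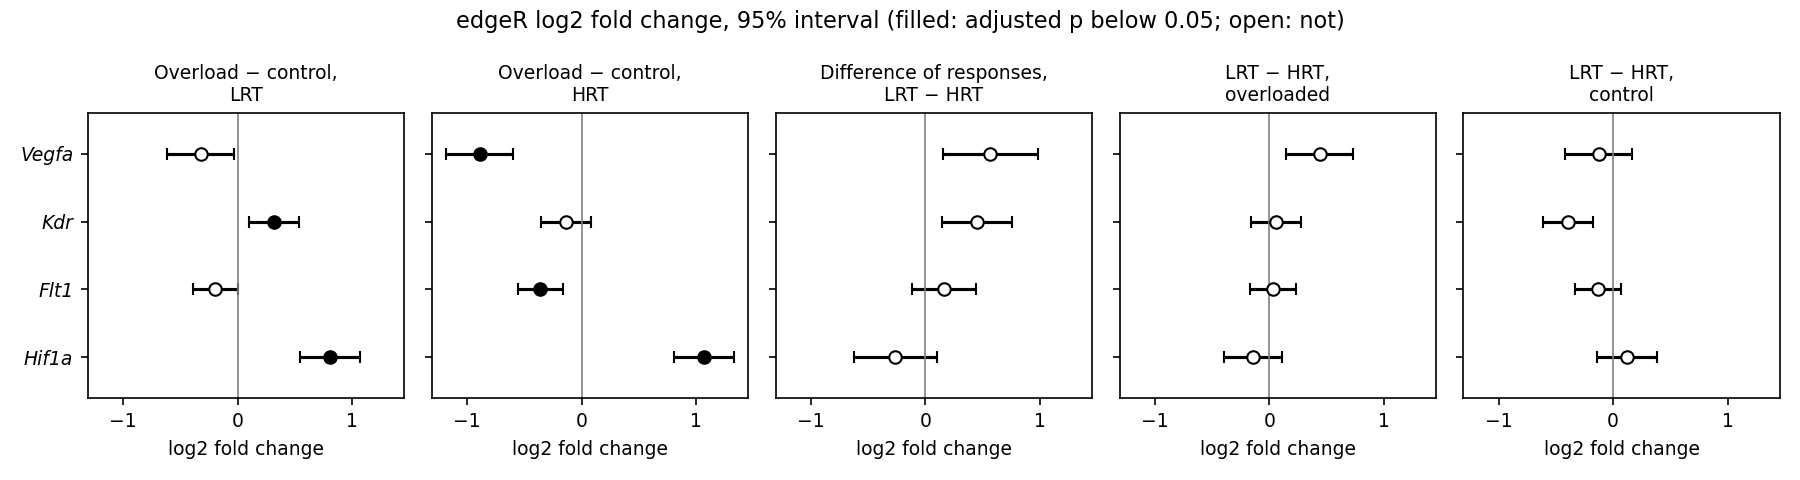
edgeR log2 fold changes with 95% intervals for the 4 members in 5 comparisons, all on one scale; filled points have an adjusted p below 0.05. Hif1a rose in both lines (0.81 in LRT, 1.07 in HRT), and no member passed in the 3 comparisons that involve a line difference.

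Whether the lines responded differently was tested as the difference between their overload responses, LRT minus HRT. By edgeR no member passed (0 of 4 called). Of all genes, 0.048%, 8 of them, were called, 0.024% higher and 0.024% lower. By DESeq2 and limma-voom it was 0 of 4 as well. Unadjusted, 2 of 4 members had an edgeR p under 0.05, as did 2265 of all 16661 genes tested. For Vegfa the response was −0.32 in LRT and −0.89 in HRT, a difference of 0.57 ± 0.20 (95% interval 0.15 to 0.98; unadjusted p = 0.00917, edgeR adjusted p = 0.228). For Kdr it was 0.32 in LRT and −0.13 in HRT, a difference of 0.45 ± 0.15 (95% interval 0.14 to 0.76; unadjusted p = 0.00604, edgeR adjusted p = 0.21). These differences lay above those of 94.8% and 92.2% of genes tested. For Flt1 the difference was 0.16 ± 0.14 (95% interval −0.12 to 0.45; edgeR adjusted p = 0.608) and for Hif1a −0.26 ± 0.18 (95% interval −0.63 to 0.10; edgeR adjusted p = 0.509). So Vegfa called in HRT and not in LRT, and Kdr called in LRT and not in HRT, are not shown to differ between lines. The signs held in all 34 alternatives for each member, with edgeR or other adjusted p of at least 0.0925 throughout. In the line comparisons within a state 0 of 4 members passed. Of all genes, 3.09% were called in overloaded muscle (1.6% higher, 1.49% lower) and 1.97% in control muscle (1.22% higher, 0.75% lower). Unadjusted, 1 of 4 members had an edgeR p under 0.05 in each state, Vegfa in overloaded and Kdr in control muscle. So did 3713 of the 16661 genes tested in overloaded and 2772 in control muscle. This count therefore does not set the members apart. With library totals alone, 16.7% of the calls were higher for the difference between responses, 10.5% in overloaded muscle and 29.0% in control muscle, against 50.0%, 51.8% and 61.9% with TMM.

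Ratios between members within a library do not depend on how libraries were scaled. They were tested with exact permutation tests, two-sided, over all splits of 6 against 6 libraries, with adjustment over 12 tests. A ratio is given as log2 of counts, and only its differences are read, since the genes differ in length.

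The log2 Vegfa/Hif1a ratio was −0.12 to 1.24 in HRT overload, against 2.32 to 2.70 in HRT control. No libraries overlap, and the ratio fell by 1.97, to 0.255 of its control value (exact permutation p = 0.00216, the smallest that 6 against 6 allow; adjusted p = 0.013). In LRT it was 0.24 to 1.95 after overload, against 2.10 to 2.55 in control. Again no libraries overlap, and it fell by 1.13, to 0.456 of its control value (exact permutation p = 0.00216, adjusted p = 0.013). In LRT the overloaded and control libraries thus stood fully apart in this ratio. How often ratios of other gene pairs separate in this way was not counted, in either line. Most of its fall there came from Hif1a, with log2 fold changes of 0.81 for Hif1a and −0.32 for Vegfa. Vegfa CPM itself did not pass there, so the ratio is no separate evidence of lower Vegfa.

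The log2 Vegfa/Kdr ratio of ligand to main receptor was 1.97 ± 0.39 in HRT overload and 2.77 ± 0.16 in HRT control (SD, n = 6 each; difference −0.79, exact permutation p = 0.00433, adjusted p = 0.0173). In LRT it was 2.37 ± 0.47 after overload and 3.05 ± 0.36 in control (difference −0.68, exact permutation p = 0.0195, adjusted p = 0.0468). The LRT call was lost without LRT overload replicate 1, 2, 4 or 6 or LRT control replicate 3, 4, 5 or 6, with differences of −0.68 to −0.52 and adjusted exact permutation p of 0.0563 to 0.0866.

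The log2 Flt1/Kdr ratio of the 2 receptors was 0.46 ± 0.21 in LRT overload and 0.98 ± 0.25 in LRT control (SD, n = 6 each). It fell by 0.52 (exact permutation p = 0.00649, adjusted p = 0.0195), and overload replicate 5 (0.79) was the only overloaded library within the control range of 0.66 to 1.26. In HRT it was 0.47 ± 0.26 in overload and 0.70 ± 0.21 in control (difference −0.24, exact permutation p = 0.119, adjusted p = 0.143), and without HRT overload replicate 4 the difference was −0.33 and passed (adjusted exact permutation p = 0.039). After overload the lines had close means, 0.46 in LRT and 0.47 in HRT (exact permutation p = 0.97, adjusted p = 0.97). In control muscle the means were 0.98 in LRT and 0.70 in HRT (difference 0.28, exact permutation p = 0.0628, adjusted p = 0.108; 0.35 with an adjusted p of 0.0482 without LRT control replicate 1). The line differences in the other ratios did not pass after adjustment; for Vegfa/Hif1a in control muscle it was −0.24 (exact permutation p = 0.0281, adjusted p = 0.0563), and it passed without LRT control replicate 5 (−0.30, adjusted exact permutation p = 0.026) or HRT control replicate 1 (−0.29, adjusted exact permutation p = 0.0364).

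**Figure D3:**
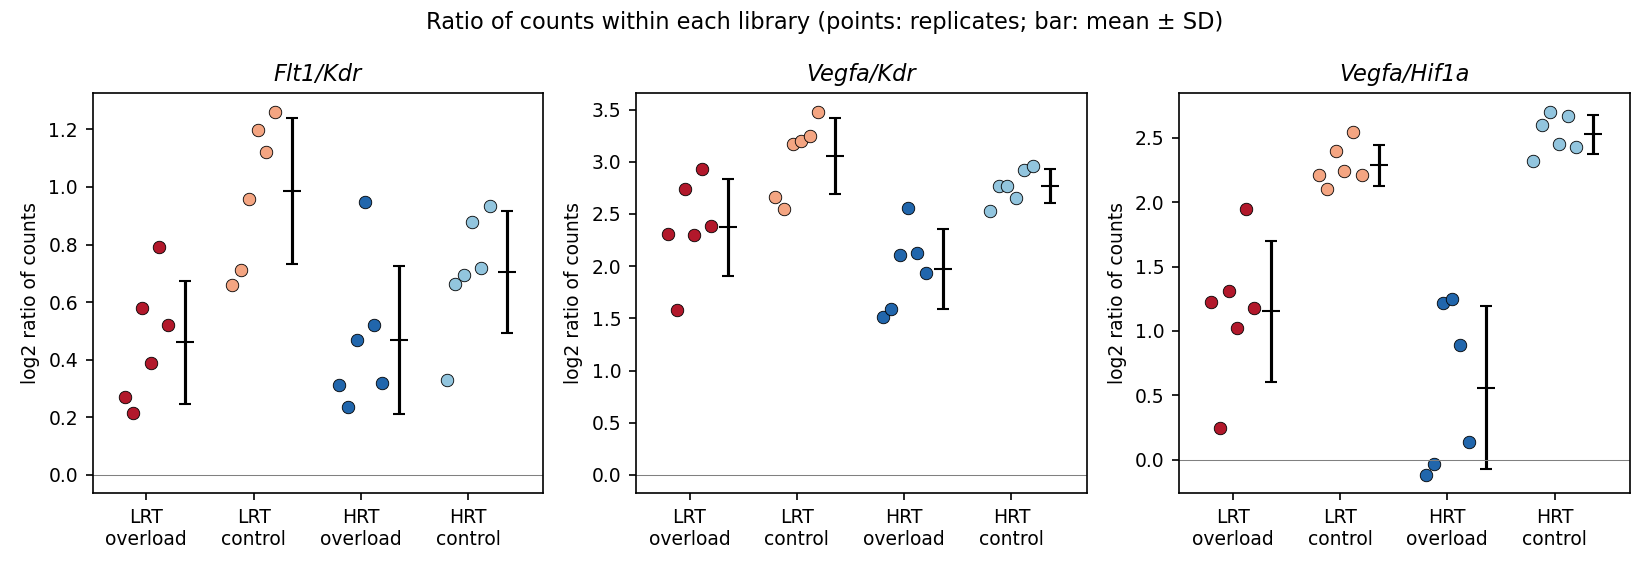
log2 ratio of counts between 2 members within each library, for Flt1/Kdr, Vegfa/Kdr and Vegfa/Hif1a; points are replicates and bars are mean ± SD of 6 libraries. In the right panel every overloaded library lies below every control library of its line (highest 1.95 against lowest 2.10 in LRT, highest 1.24 against lowest 2.32 in HRT). How often ratios of other gene pairs separate in this way was not counted.

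The members also varied among libraries of one group. The SD of log2 CPM in overload was 2.17 times (LRT) and 4.28 times (HRT) that in control for Vegfa, and 1.80 times (LRT) and 3.99 times (HRT) for Hif1a. For Kdr these were 0.61 and 1.04 times, and for Flt1 0.59 and 1.55 times. These ratios of spread were not tested and were not computed for other genes, so they do not show a trait of these members. In LRT control, replicate 3 held the lowest value of all 4 members.

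Correlations were computed over all 24 libraries as deviations of log2 CPM from the group mean, with permutation within groups and adjustment over 6 pairs. Vegfa and Flt1 ran together (Pearson's r = 0.633, permutation p = 0.00394, adjusted p = 0.0236; Spearman's rho = 0.622, permutation p = 0.00871, adjusted p = 0.0523). Leaving out the 2 most distant libraries gave r = 0.703. It was 0.753 within the 12 overloaded libraries and 0.446 within the 12 control libraries (permutation p = 0.0149 and 0.187), neither passing after adjustment (adjusted p = 0.0895 and 0.646), and 0.35 with library totals alone (permutation p = 0.0689, adjusted p = 0.128), where it did not pass either. Vegfa and Hif1a ran against each other without passing (r = −0.509, permutation p = 0.063, adjusted p = 0.189; rho = −0.509, permutation p = 0.0363, adjusted p = 0.109; −0.371 after leaving out the pair farthest from the median), with r = −0.631 in overloaded and 0.271 in control libraries (permutation p = 0.0407 and 0.539, adjusted p = 0.122 and 0.646). The 2 receptors were not closely tied (r = 0.178, permutation p = 0.433, adjusted p = 0.433). By rank, rho was 0.229 (permutation p = 0.299, adjusted p = 0.382). Without the 2 libraries farthest from the median of the Kdr deviations, r was 0.152. With library totals alone Kdr and Hif1a passed (r = 0.553, permutation p = 0.00402, adjusted p = 0.0241; rho = 0.487, permutation p = 0.0227, adjusted p = 0.103). With TMM, r for the other 3 pairs lay between −0.241 and 0.296, with adjusted permutation p of 0.324 to 0.433, and rho between −0.283 and 0.15, with adjusted permutation p of 0.382 to 0.497.

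Genes whose log2 CPM averaged 1 or more were compared with each member (12168 genes). Of these, 9 had r above 0.9 with Vegfa over the 24 deviations, 4 with Hif1a and 0 with Kdr or Flt1, where the highest r were 0.796 and 0.847. They are not named, since their IDs are paired with no symbols here. Vegfa ranked 572 among the genes most like Flt1, above 95.3% of them, and Flt1 ranked 1754 among those most like Vegfa. These ranks describe shared variation in the same 24 libraries, which also share depth and scaling.

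The spread of Vegfa and Hif1a was then set against the first principal component (PC1) of all other tested genes, which held 51.91% of the variance and separated overload from control; this was chosen after the spread had been seen. In HRT overload, replicates 1, 2 and 6 had PC1 scores of 92.1, 87.1 and 92.04, and replicates 3, 4 and 5 had 38.8, 35.9 and 55.4. The first 3 of these libraries were the ones with the lowest Vegfa, the lowest Flt1 and the highest Hif1a of the group. In LRT overload, replicate 2 had the highest PC1 score (71.9), the lowest Vegfa and the highest Hif1a, and replicate 5 had the lowest score (16.8) and the lowest Hif1a.

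Within the 12 overloaded libraries the deviation of Vegfa from its group mean had r = −0.899 with that of PC1 (permutation p = 0.00179, adjusted p = 0.0036 over 4 members; rho = −0.923, permutation p = 0.0013, adjusted p = 0.0052). Hif1a had r = 0.845 (permutation p = 0.0018, adjusted p = 0.0036; rho = 0.867, permutation p = 0.003, adjusted p = 0.006) and Flt1 r = −0.779 (permutation p = 0.0218, adjusted p = 0.029; rho = −0.748, permutation p = 0.0301, adjusted p = 0.0402). Kdr had r = 0.373 (permutation p = 0.219, adjusted p = 0.219; rho = 0.259, permutation p = 0.421, adjusted p = 0.421). Over all 24 libraries r was −0.852 for Vegfa, 0.774 for Hif1a, −0.547 for Flt1 and 0.214 for Kdr (adjusted permutation p = 0.0028, 0.0028, 0.0488 and 0.227). Spearman's rho was −0.817, 0.63, −0.443 and 0.12 in the same order (adjusted permutation p = 0.00132, 0.0196, 0.0895 and 0.573), so Flt1 did not pass by rank. The 2 libraries farthest from the median of the PC1 deviations were then left out. The r values became −0.833, 0.698, −0.434 and 0.214, and Flt1 no longer passed (adjusted permutation p = 0.118). Within the 12 control libraries they were −0.32, 0.197, 0.218 and 0.037, and none passed (adjusted permutation p of 0.831 to 0.92); the difference between overloaded and control libraries in r was not tested. PC1 comes from the same libraries as the members.

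In HRT overload the scores moved with the TMM normalization factors. These were 1.223, 1.282 and 1.269 in replicates 1, 2 and 6, against 1.062, 1.013 and 1.093 in replicates 3, 4 and 5. In LRT overload, replicate 2 had the highest factor (1.18). Replicate 5, with the lowest score, had a factor of 1.035, above 0.977 and 1.015 in replicates 4 and 6. With levels and PC1 both recomputed from library totals alone, also chosen after the data had been seen, r within the 12 overloaded libraries was −0.824 for Vegfa and 0.914 for Hif1a, and both passed (adjusted permutation p = 0.00359 and 0.00204; rho −0.776 and 0.874, adjusted permutation p = 0.0098 and 0.00586). Flt1 did not pass with that scaling (r = −0.377, adjusted permutation p = 0.267; rho = −0.441, adjusted permutation p = 0.192), and Kdr passed (r = 0.773, adjusted permutation p = 0.00204; rho = 0.804, adjusted permutation p = 0.00586). Over all 24 libraries r with that scaling was −0.717 for Vegfa, 0.865 for Hif1a, −0.1 for Flt1 and 0.539 for Kdr (adjusted permutation p = 0.00403, 0.00122, 0.556 and 0.00122). The relations of Vegfa and Hif1a thus passed under both scalings, and those of the 2 receptors depend on the scaling. Both scalings start from the same counts, so passing under both is no independent check. PC1 is the axis along which the tested genes vary most, and the share of all genes with r this large was not counted. A pass therefore does not set Vegfa and Hif1a apart from other genes.

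**Figure D4:**
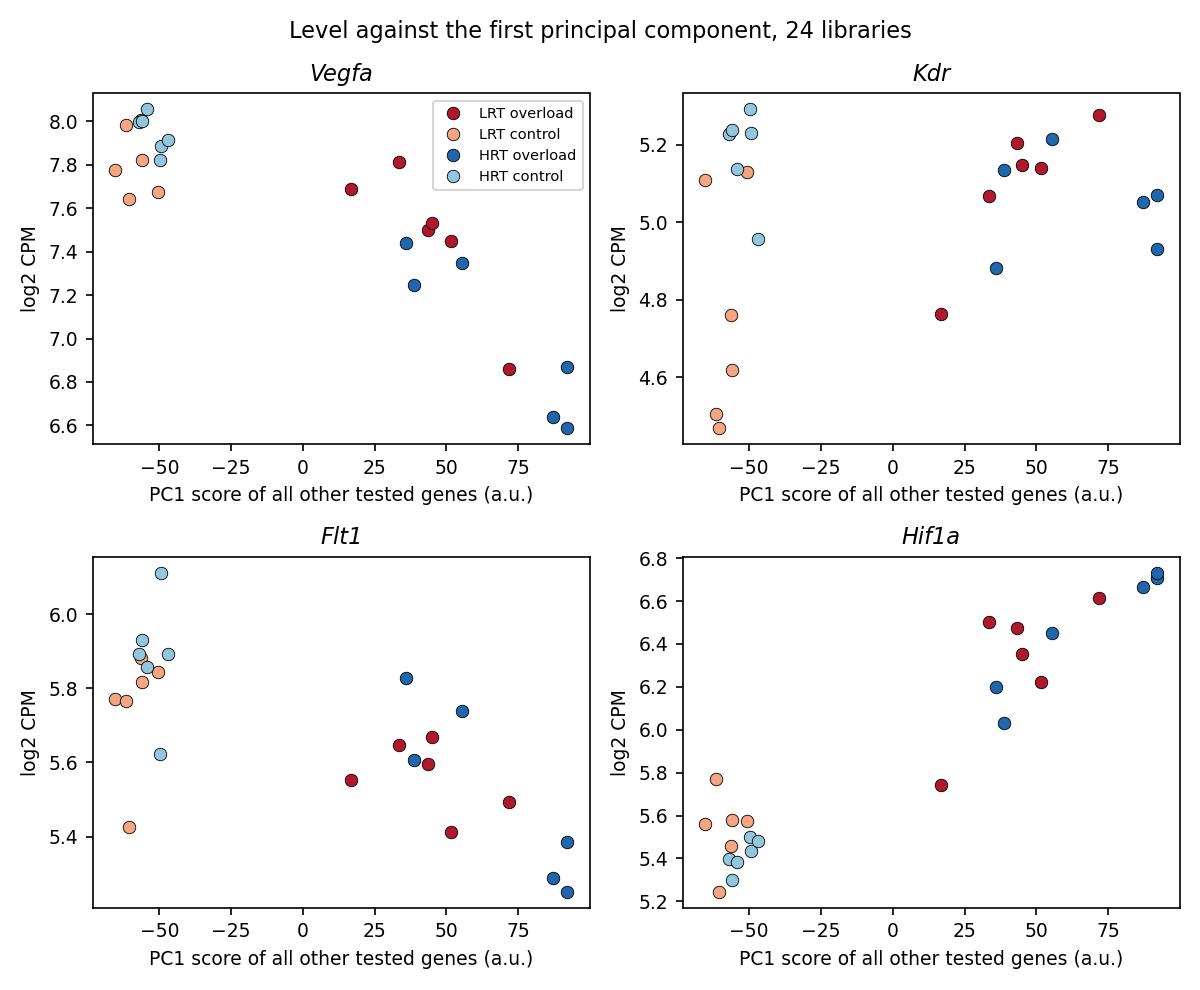
log2 CPM of each member against the PC1 score (arbitrary units) of all other tested genes; each point is 1 of 24 libraries, coloured by group. Among overloaded libraries Vegfa is lower and Hif1a higher at high scores (r = −0.899 and 0.845 within the 12 overloaded libraries, as deviations from group means), while Kdr did not pass with this TMM scaling (r = 0.373) and did with library totals alone (r = 0.773).

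**Figure D5:**
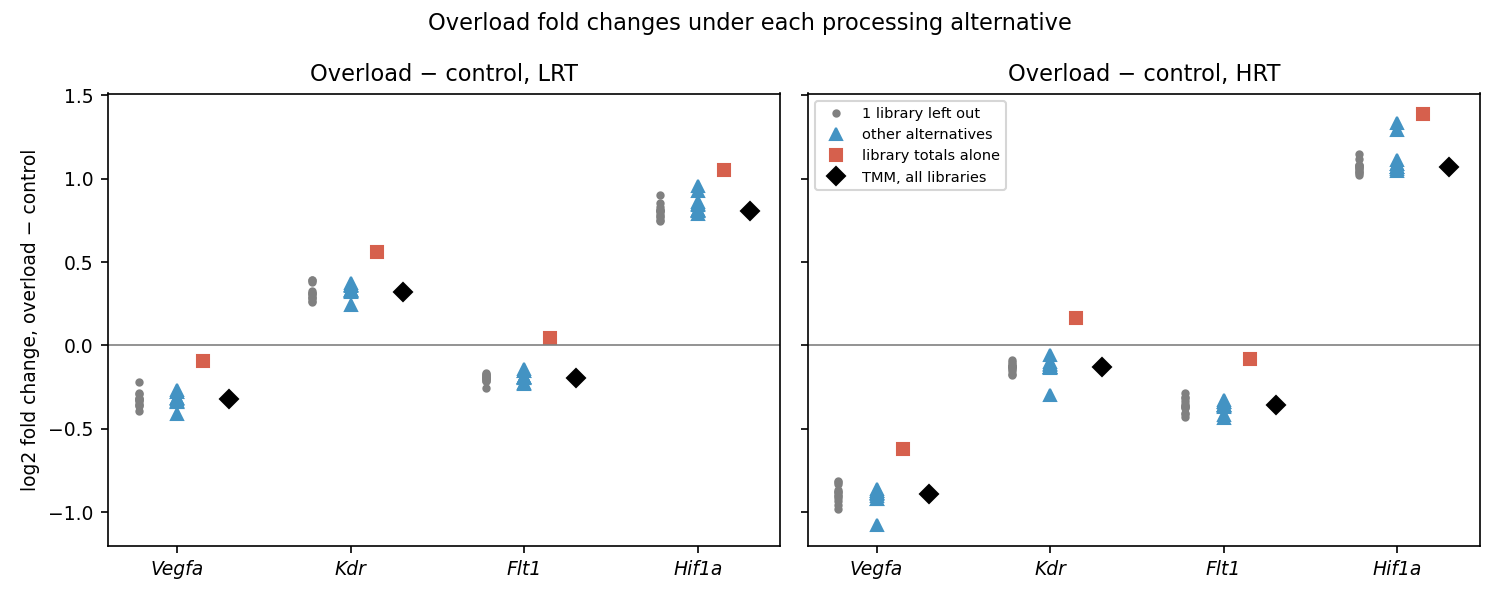
log2 fold change of overload over control for each member under each processing alternative, LRT left and HRT right; grey points leave out 1 library, triangles are other alternatives, squares scale by library totals alone and diamonds are the TMM fit to all libraries. Hif1a stays above 0 and Vegfa below 0 throughout, while Kdr in HRT and Flt1 in LRT cross 0 under library totals (0.16 and 0.04).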

How the data were processed

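Total plantaris RNA was sequenced from Illumina TruSeq libraries (labels' protocols). The authors deposited estimated counts per gene and library, not normalized; the submitters' processing notes name Salmon 0.9.1, Rnor_6.0 and rn6. The annotation is not given in the sources used. Groups came from the sample titles. Counts were rounded, filtered with filterByExpr (minimum count 10, total 15; 16661 genes with 99.95% of counts kept) and fitted in R 4.3.3 with edgeR 4.0.16: TMM scaling, a coefficient per group over all 24 libraries, robust quasi-likelihood tests. Each standard error was derived from the log2 fold change and its F statistic. The model was also run on counts simulated from its own fit, which cannot tell which scaling is right.

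The members, lists, tests and named genes were chosen with earlier results of these data known. The rule named all 4 members; the 6 pathway lists and 7 marker lists fixed by symbol could not be matched to IDs and gave no result. Log2 CPM and ratios used a pseudocount of 0.5, and correlations 100000 permutations. Alternatives used DESeq2 1.42.0 and limma 3.58.1. Plots used matplotlib 3.10.9 in Python 3.11.15.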

Additional observations from a re-analysis of the deposited data

Results flagged for a closer look

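Flt1 in LRT control replicate 3 stood apart from its group, at 43.0 CPM or 5.43 on the log2 scale, against 5.77 to 5.88 in the other 5 libraries. Its gap to the nearest library was 0.749 of the group's range and past Dixon's 95% critical value for 6 libraries. Of 28 groups of member levels and ratios looked at, it was the only one, and chance flags about 5% of groups. This library also held the lowest Vegfa, Kdr and Hif1a of LRT control, and without it the Flt1 log2 fold change of overload in LRT was −0.25 (edgeR adjusted p = 0.0248).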

How the results depend on the processing

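Over all settings Vegfa and Hif1a in HRT and Hif1a in LRT kept direction and call. With library totals alone, Kdr in HRT (0.16) and Flt1 in LRT (0.0439) changed sign, Flt1 in HRT lost its call (−0.0814), and the line differences of Kdr and Flt1 in overloaded muscle changed sign (−0.0846 and −0.0982). Each of these followed the shift of all genes. Relative to the median gene of that scaling the 5 values were −0.11, −0.18, −0.35, 0.069 and 0.055. With TMM they were −0.11, −0.17, −0.33, 0.065 and 0.039. That agreement follows from the arithmetic of scaling and does not tell which sign is right.

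Leaving out 1 library moved Vegfa in LRT between −0.39 and −0.22, Flt1 in LRT between −0.25 and −0.17, Vegfa between lines after overload between 0.36 and 0.54, Flt1 there between −0.0143 and 0.0986, and Kdr between lines in control between −0.47 and −0.34. Ratio differences moved likewise: Flt1/Kdr between −0.33 and −0.19 (HRT), between −0.0727 and 0.089 (lines, overloaded) and between 0.21 and 0.35 (lines, control), Vegfa/Kdr in LRT between −0.79 and −0.52, and Vegfa/Hif1a in control between −0.30 and −0.21. Uncalled values moved over 1.5 times too, the farthest being Hif1a between lines after overload (−0.05 without LRT overload replicate 5) and in control (0.07 without LRT control replicate 6), Flt1 between lines in control (−0.07 without LRT control replicate 3), Kdr in HRT (−0.09 without HRT overload replicate 6), Kdr between lines after overload (0.02 without LRT overload replicate 2), and the response differences of Hif1a (−0.17 without LRT overload replicate 5) and Flt1 (0.11 without LRT control replicate 3). Calls gained were Vegfa in LRT with RNA integrity (−0.41), Vegfa between lines after overload by DESeq2 (0.44), and Kdr between lines in control by DESeq2 (−0.40), limma-voom (−0.41) and a stricter filter (−0.40).

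Replicate numbers were not treated as pairs: same-numbered libraries had deviations correlated at −0.109 to 0.309. The replicate block gave calls for Vegfa in LRT (−0.34), Vegfa between lines after overload (0.45) and Kdr between lines in control (−0.41, also −0.41 with RNA integrity), and with RNA integrity lost Kdr in LRT (0.24). Of the 6 numbers in each of the 4 group pairs at most 1 library matched its own number best. Paired sign-flip tests of the ratios (Flt1/Kdr −0.52 in LRT, Vegfa/Kdr −0.68 in LRT and −0.79 in HRT, Vegfa/Hif1a −1.13 in LRT and −1.97 in HRT) gave adjusted exact p = 0.0625 each, too few pairs to pass after adjustment.

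Correlations that lost their call were Vegfa with Flt1 (0.35 by totals, 0.753 in overloaded, 0.446 in control libraries), and with PC1, Vegfa (−0.32 in control), Hif1a (0.197 in control) and Flt1 (−0.434 without the 2 most distant libraries, −0.1 by totals, −0.377 by totals in overloaded libraries). Those that gained one were Kdr with Hif1a (0.553 by totals) and Kdr with PC1 (0.539 by totals, 0.773 by totals in overloaded libraries). Those that changed sign were Flt1 with Hif1a (0.0697 by totals, 0.344 in control), Vegfa with Hif1a (0.271 in control) and Flt1 with PC1 (0.218 in control).

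Counts of all genes called for the difference between responses, 8 with TMM, were 1 (DESeq2 size factors, block, block with RNA integrity), 2 (limma-voom, RNA integrity), 5 (no filter, dispersion not robust), 137 (DESeq2) and 1 to 25 with 1 library left out (25 without HRT overload replicate 4). Between lines after overload, 514 became 2153 (totals), 1093 (DESeq2), 307 (no filter), 785 (RNA integrity), 289 (block with RNA integrity), 115 (these groups alone) and 171 to 1647 (without LRT overload replicate 3 and HRT overload replicate 3). Between lines in control, 328 became 619 (DESeq2), 206 (no filter) and 154 to 495 (without HRT control replicate 4 and LRT control replicate 2). Other causes were not tested. Depth limits little here, with at least 613 counts per member and library.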
